A study of Caenorhabditis elegans with 15 samples.

Results

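The 10 genes lys-1 to lys-10 of Caenorhabditis elegans encode lysozymes, and their RNA was followed across 5 genotypes of whole adult worms. The genes were found by matching these symbols to the WormBase identifiers of the count table, which lists 46739 genes. All 10 were in the table and all 10 had counts. Of these, 9 passed the filter on low counts and entered the tests among 16888 genes, while lys-9 did not and is described by its counts.

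Each genotype had 3 libraries, made from hand-picked adults 24 h past the middle of the last larval stage. The labels give the wild type (wt), a knock-out of gld-2 (gld2), and the same knock-out together with a second one of ccf-1 (gld2-ccf1), ccr-4 (gld2-ccr4) or parn-1 (gld2-parn1), here called the combined genotypes. By these labels all groups but wt share the knock-out of gld-2, and neither the alleles nor the wild-type strain are named in the labels. GLD-2 is a cytoplasmic poly(A) polymerase, and CCF-1, CCR-4 and PARN-1 are deadenylases, so the series sets an enzyme that lengthens poly(A) tails against enzymes that shorten them.

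Lysozymes cleave the peptidoglycan of bacterial cell walls. Worms feed on bacteria, and lysozymes serve both digestion and innate defence, with many of them made in the intestine. The lys genes encode lysozymes of a kind otherwise known from protists, while the separate ilys genes encode the invertebrate type. Of the family, lys-1, lys-7 and lys-8 are known to respond to bacterial infection, lys-7 as a target of the FOXO factor DAF-16 of insulin signalling and lys-8 as a target of the TGF-beta-like ligand DBL-1.

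Most members sit beside another member (WBcel235). On chromosome V, lys-1 (WBGene00003090, 10277904 to 10279056, plus strand), lys-2 (WBGene00003091, 10280307 to 10281474, minus strand) and lys-3 (WBGene00003092, 10282100 to 10283544, minus strand) follow each other, with 1250 and 625 bases between them. On chromosome IV, lys-4 (WBGene00003093, 11621429 to 11623174), lys-5 (WBGene00003094, 11624252 to 11625582) and lys-6 (WBGene00003095, 11626910 to 11627947) lie in a row on the minus strand, 1077 and 1327 bases apart. The other 4 stand alone: lys-7 (WBGene00003096, chromosome V, 3481432 to 3482600, minus), lys-8 (WBGene00003097, chromosome II, 5586178 to 5587651, plus), lys-9 (WBGene00003098, chromosome I, 12454853 to 12455826, minus) and lys-10 (WBGene00003099, chromosome IV, 8332826 to 8333518, plus). Every member has 1 annotated transcript. A single exon makes up lys-10, whose neighbours are the histone genes his-30 and his-31, and the others have 2 to 4 exons. The end of lys-8 overlaps C17G10.13 on the other strand, a gene not in the count table, and lys-4 contains the piRNA 21ur-8714, with 28 counts in all libraries together. Whether counting used strand and how reads matching several paralogs were treated is not given in the sources used here, so reads shared between members could have been split or dropped.

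Library totals ran from 28.1 M to 39.4 M counts, of which the lysozyme genes took 0.035% to 0.137%. Nuclear ribosomal RNA exceeded 4% of the counts in 4 libraries, namely wt replicate 1, gld2 replicate 3, gld2-ccf1 replicate 2 (the highest, 14.3%) and gld2-parn1 replicate 3. In a check of the labels, gld-2 averaged 211 CPM (counts per 1e+06 counts) in wt and 53.7 in gld2, and ccr-4 281 in gld2 and 170 ± 7.45 in gld2-ccr4 (SD, n = 3). The gene ccf-1 was not reduced in the gld2-ccf1 libraries but averaged 29500 CPM against 31.8 in gld2, and parn-1 stood at 60.6 CPM in those labelled gld2-parn1 against 50.6 in gld2. The RNA of the second gene was thus not below its gld2 mean in either, so these levels do not bear out the 2 labels. A knock-out need not lower the RNA of its gene and the alleles are not named, so the parn-1 level cannot decide its label. That reason does not cover ccf-1, which ran from 15500 to 47500 CPM in the gld2-ccf1 libraries. The source of this RNA was not tested. Both genotypes are named only as labelled. Markers of intestine, muscle, neurons, epidermis, germline and coelomocytes that were matched to a gene had counts in every genotype, while phat-1, phat-5 and ceh-22 of the pharynx and msp-53, msd-1 and ssp-9 of sperm had none in some. In whole worms, fewer cells of a type and less RNA per cell cannot be told apart, and this holds for every level below.

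One library stood apart in the lysozyme genes themselves. In gld2-ccr4 replicate 1, lys-4 was at 48.8 CPM against 3.13 and 3.18 in replicates 2 and 3, and lys-5 was at 0.790 against 0 and 0.110. Of 12308 genes averaging 1 CPM or more, 12 were more than 4-fold above both other libraries of the genotype there. Across all genes it was not the most deviant library, since wt replicate 3 had 63 such genes and wt replicate 1 had 32, with 29 more below. Among the 12 genes, lys-4 had the second largest gap after the C-type lectin gene clec-47 (11.9 against 0.296 and 0.137 CPM). This library enters the spread that all comparisons share, so calls of lys-4, lys-5 and lys-6 that changed without it are also given.

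Each gene was tested with edgeR's quasi-likelihood test over all 15 libraries, with Benjamini-Hochberg adjustment over the 16888 genes and a call at an adjusted p under 0.05. Changes are log2 fold changes with their standard error (SE). Levels of 1 gene across libraries are in CPM, and levels of different genes are compared only per kilobase of exon (RPKM).

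In wt the family was led by lys-4, at 224 ± 55.7 RPKM, and lys-1, at 139.7 ± 7.74 RPKM (mean ± SD, n = 3). Next came lys-8 (71.4 ± 4.25 RPKM) and lys-2 (41.4 ± 23.5 RPKM). The other 6 had mean levels under 6 RPKM: lys-7 5.31, lys-6 4.22, lys-5 1.93, lys-10 0.936, lys-3 0.535 and lys-9 0.109. The order was different in the other genotypes. In gld2, lys-1 led with 218 ± 16.9 RPKM, and lys-8 (111.8 ± 7.71 RPKM) and lys-4 (106 ± 9.82 RPKM) overlapped within their spread. In gld2-ccf1, lys-1 (831 ± 42.4 RPKM) and lys-2 (346 ± 39.9 RPKM) stood above lys-7 (70.2 ± 11.7 RPKM), and lys-4 was at 12.5 ± 1.67 RPKM.

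The summed level of the 10 genes was 372 to 514 CPM in the wt libraries and 477 to 568 in gld2, which overlap. It was 1141 to 1315 CPM in gld2-ccf1, 632 to 847 in gld2-ccr4 and 512 to 532 in gld2-parn1. The gld2-ccf1 and gld2-ccr4 libraries were thus above every gld2 and wt library, while those of gld2-parn1 lay within the range of gld2. The makeup shifted as well: lys-4 gave 40.8% ± 3.36 of the lysozyme counts in wt, 15.7% ± 1.10 in gld2 and 0.785% ± 0.050 in gld2-ccf1, while lys-1 and lys-2 gave 31.8% and 8.58% in wt (SD, n = 3). In the gld2-ccf1 libraries lys-1 gave 62.9% to 65.9% and lys-2 24.5% to 27.2%.

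**Figure D1:**
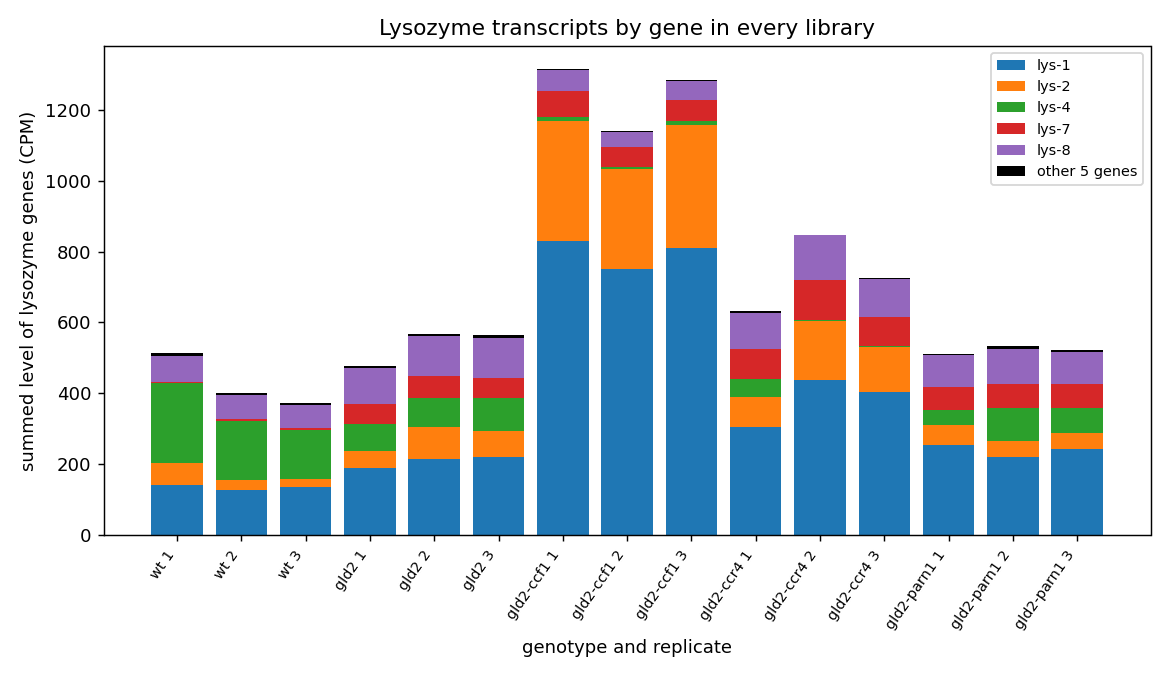
Summed level of the lysozyme genes (CPM, vertical axis) in each of the 15 libraries (horizontal axis), divided by gene. The lys-4 segment is largest in wt, and the gld2-ccf1 bars, at 1141 to 1315 CPM, consist mainly of lys-1 and lys-2.

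Over the 5 genotypes 8 of the 9 tested members differed, where 69.5% of all tested genes did; the exception was lys-3. In gld2 against wt, 3 members rose (lys-1, lys-7 and lys-8) and 0 fell, against a background of 28.8% of genes higher and 20.2% lower. In gld2-ccf1 against gld2, lys-1 and lys-2 rose and 4 members fell (lys-4, lys-6, lys-8 and lys-10), with 19.8% and 16.7% of all genes called in these directions. In gld2-ccr4 against gld2, lys-1 and lys-7 rose and lys-10 fell, with 11.1% and 9.23% of all genes. In gld2-parn1 against gld2, 0 members were called in either direction by edgeR or by DESeq2, where edgeR called 4.90% of genes higher and 4.90% lower, and 1 member (lys-8) had an unadjusted p under 0.05. The median log2 fold change of the 9 members was 0.64, -1.05, -0.38 and -0.21 in these 4 comparisons, beside 0.14, 0.00, 0.00 and 0.02 over all genes tested. The 3 comparisons of combined genotypes with gld2 share the same gld2 libraries.

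Against wt, gld2-ccf1 had lys-1, lys-2 and lys-7 higher and lys-4, lys-6 and lys-8 lower (32.1% and 19.7% of all genes). The gld2-ccr4 worms had lys-1, lys-2, lys-7 and lys-8 higher and lys-4 and lys-5 lower (30.0% and 20.8%), and gld2-parn1 had lys-1, lys-7 and lys-8 higher and 0 lower (28.9% and 21.5%). Between combined genotypes, lys-1 and lys-2 were higher and lys-6, lys-7 and lys-8 lower in gld2-ccf1 than in gld2-ccr4 (14.4% and 11.6%). Against gld2-parn1, gld2-ccf1 had lys-1 and lys-2 higher and lys-4, lys-6 and lys-8 lower (20.0% and 17.2%), and gld2-ccr4 had lys-1, lys-2 and lys-7 higher and 0 lower (7.34% and 5.95%).

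**Figure D2:**
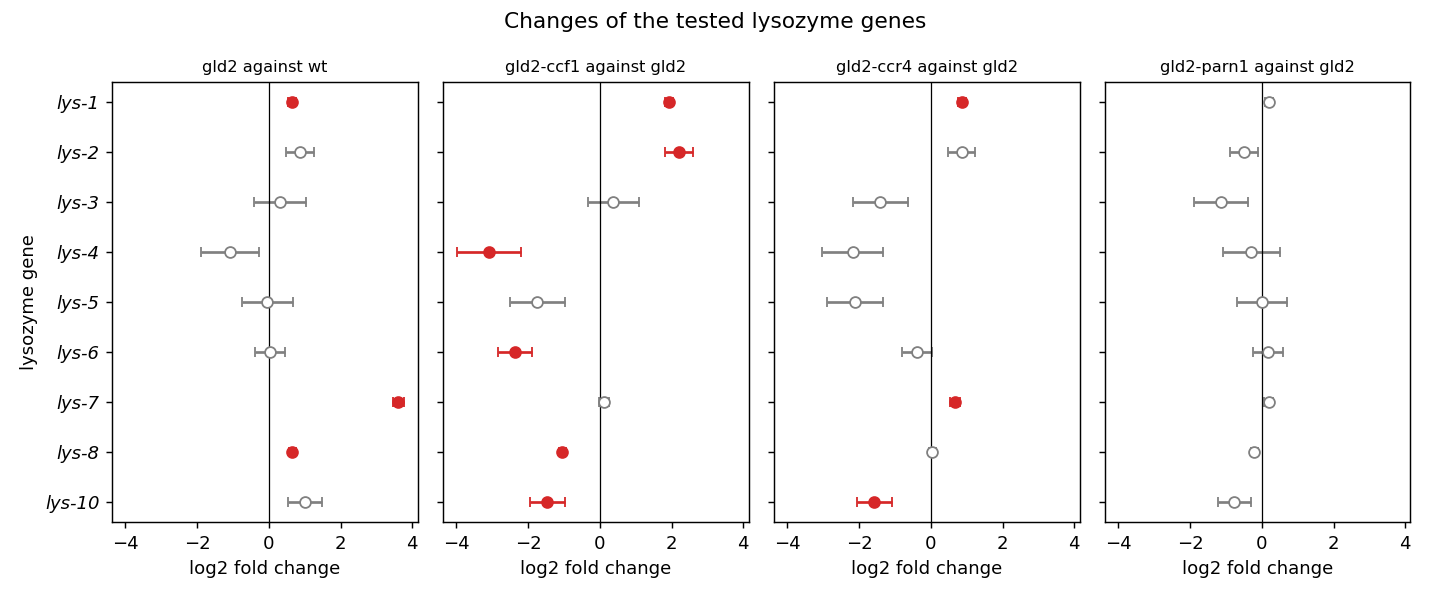
Log2 fold change (horizontal axis) of the 9 tested lysozyme genes (vertical axis) in the 4 main comparisons, with bars of 1 SE from the edgeR fit over 15 libraries. Filled red points passed the test, and lys-7 in gld2 against wt, at 3.60, lies farthest above 0.

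The DAF-16 target lys-7 showed the largest rise of the family between gld2 and wt. It was at 3.98, 4.70 and 5.67 CPM in the wt libraries and at 56.7, 62.2 and 56.5 CPM in those of gld2. Every gld2 library was therefore far above every wt library, and the rise was 12.2-fold (log2 fold change 3.60, SE 0.15, adjusted p = 4.06e-12, edgeR). By size it ranked 1418 from the top among 16888 genes. The level was also high in the combined genotypes, where the gld2-ccf1 libraries had 75.1, 54.98 and 59.9 CPM, those of gld2-ccr4 85.997, 112.9 and 81.0, and those of gld2-parn1 62.5, 69.9 and 67.3. All 3 gld2-ccr4 libraries lay above those of gld2, and the further rise was 0.67 on the log2 scale (SE 0.13, adjusted p = 0.00157, edgeR). It was 0.25 without a call (adjusted p = 0.224) when the libraries were scaled on somatic marker genes. The gld2-ccf1 and gld2 libraries overlapped (log2 fold change 0.12, SE 0.13), and the difference of gld2-parn1 from gld2 was 0.19 (SE 0.13, adjusted p = 0.414). In the order of levels, gld2, gld2-ccf1 and gld2-parn1 did not differ from each other by the test. The gld2-ccr4 worms were called above all 3 of them, but under somatic scaling the calls against gld2 and against gld2-parn1 (0.45, adjusted p = 0.0785) were both lost. The call against gld2-parn1 was also lost without gld2-ccr4 replicate 2 or gld2-parn1 replicate 1 or 3 (adjusted p from 0.0642 to 0.123, edgeR).

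The infection-responsive lys-1, the family's most abundant member in every genotype but wt, rose in steps. The wt libraries had 141, 126 and 135 CPM, those of gld2 had 191, 214 and 222, and gld2-ccf1 had 831, 752 and 809. These 3 groups did not overlap. The gld2-ccr4 libraries, at 304, 439 and 404 CPM, lay between gld2 and gld2-ccf1, and the gld2-parn1 libraries, at 254, 219.8 and 242 CPM, overlapped those of gld2. Of the 10 pairs of genotypes 9 were called, the exception being gld2-parn1 and gld2 (log2 fold change 0.19, SE 0.10, adjusted p = 0.265). The rise was 0.64 (SE 0.10, adjusted p = 6.98e-05) from wt to gld2, 1.93 (SE 0.11, adjusted p = 1.10e-09) from gld2 to gld2-ccf1 and 0.87 (SE 0.10, adjusted p = 2.23e-05) from gld2 to gld2-ccr4, all by edgeR. Between gld2-ccf1 and gld2-ccr4 the difference itself was 1.06 (SE 0.10, adjusted p = 2.36e-06).

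Its neighbour lys-2, transcribed towards lys-1, was at 63.4, 29.4 and 22.7 CPM in wt and at 46.4, 91.3 and 72.5 in gld2, groups that overlap. It reached 337, 279.7 and 349 CPM in gld2-ccf1, above every other library, and 86.5, 166 and 127.5 in gld2-ccr4, while gld2-parn1 had 55.6, 47.2 and 45.8. The rise from gld2 to gld2-ccf1 was 4.598-fold (log2 fold change 2.20, SE 0.39, adjusted p = 0.00128, edgeR). From gld2 to gld2-ccr4 the log2 fold change was 0.85 (SE 0.38, adjusted p = 0.148). In gld2 against wt it was 0.87 (SE 0.39, adjusted p = 0.0882), and 1.44 with a call (adjusted p = 0.00567) without wt replicate 1. Without the libraries above 4% nuclear ribosomal RNA it was 1.35 with a call (adjusted p = 0.0408, edgeR). In gld2-parn1 against wt lys-2 was at 0.37 (adjusted p = 0.463), and at 0.93 with a call (adjusted p = 0.0428) without wt replicate 1. The calls of lys-2 between gld2-ccr4 and the other combined genotypes were less stable. That against gld2-ccf1 (1.35, adjusted p = 0.0251) ended without gld2-ccf1 replicate 1 or 3 or gld2-ccr4 replicate 1 or 3 (adjusted p from 0.0573 to 0.0897). That against gld2-parn1 (1.35, adjusted p = 0.0426) ended without gld2-ccr4 replicate 2 or 3 or any gld2-parn1 library (adjusted p from 0.0892 to 0.148). Both were also lost under somatic scaling (adjusted p = 0.0603 and 0.103).

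The third gene of this cluster, lys-3, was nearly silent, with 307 counts in all libraries together. The wt libraries had 1.43, 0.0696 and 0.303 CPM. Levels ran from 0.431 to 1.25 CPM in gld2, while gld2-ccf1 had 0.881 to 1.03, gld2-ccr4 0.0765 to 0.494 and gld2-parn1 0.236 to 0.423. With TMM scaling, the filter on low counts and all 15 libraries, none of the 10 pairs of genotypes was called by edgeR. DESeq2 called none either. At an unadjusted p under 0.05, only gld2-ccf1 against gld2-ccr4 passed (log2 fold change 1.79, SE 0.76, adjusted p = 0.0909). Without wt replicate 1, its highest library, lys-3 was higher than in wt both in gld2 (1.94, adjusted p = 0.0456) and in gld2-ccf1 (2.32, adjusted p = 0.0181). Under somatic scaling it was lower in gld2-ccr4 than in gld2 (-1.87, adjusted p = 0.0276). Other edgeR fits with TMM scaling called it as well. It was higher in gld2-ccf1 than in gld2-ccr4 without a filter (1.78, adjusted p = 0.0338) and in the fit of those 6 libraries (1.78, adjusted p = 0.0498). A fit of 6 libraries also put gld2-ccf1 above gld2-parn1 (1.51, adjusted p = 0.0203). Without the libraries above 4% nuclear ribosomal RNA, gld2-ccf1 was above wt (2.32, adjusted p = 0.032).

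**Figure D3:**
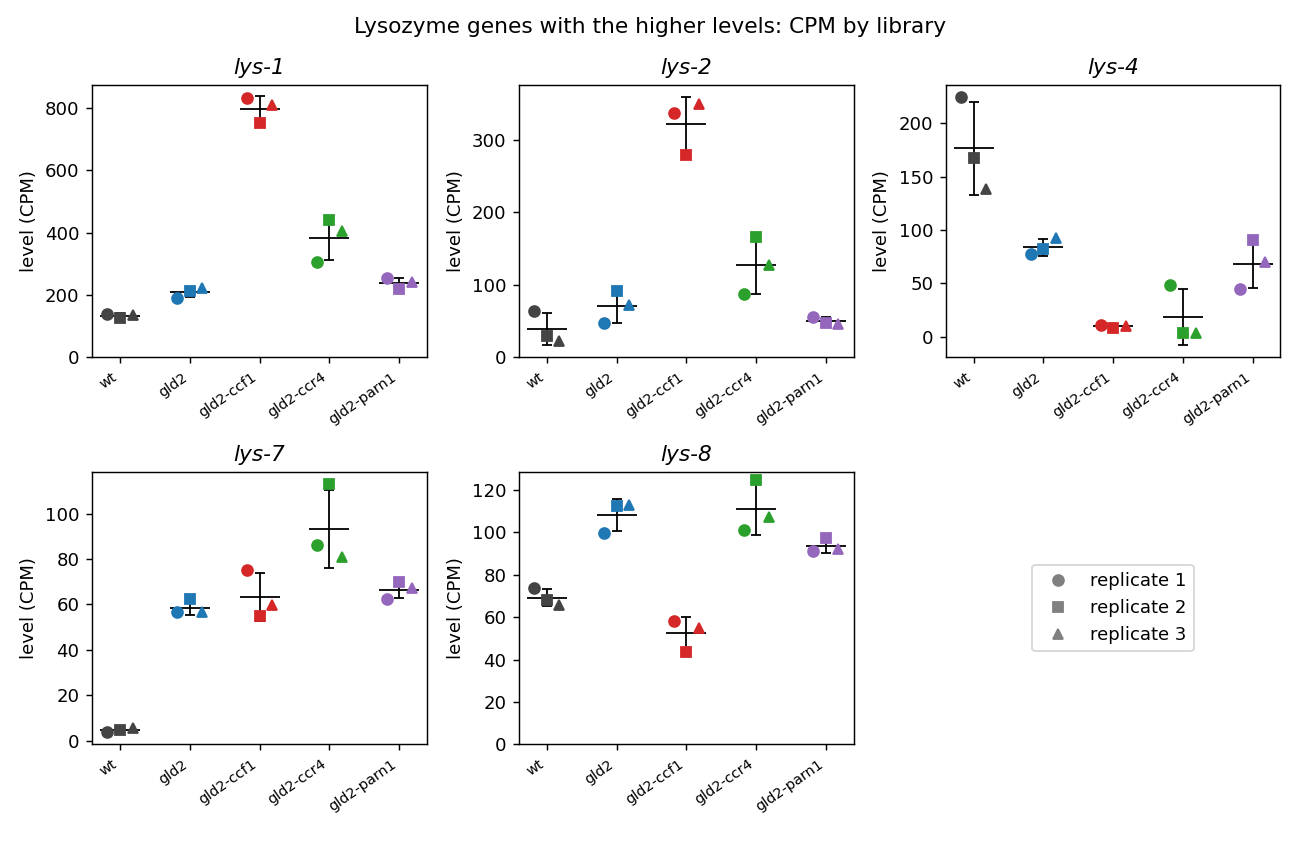
Level (CPM, vertical axis, from 0 or below) of the 5 most abundant lysozyme genes in the 5 genotypes (horizontal axis). Symbols are the 3 libraries, the horizontal line is their mean and the bar is the SD. The gld2-ccf1 libraries are highest for lys-1 and lys-2 and lowest for lys-8, and gld2-ccr4 replicate 1 stands apart for lys-4.

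The DBL-1 target lys-8 moved up in gld2 and down in gld2-ccf1. It was at 73.8, 68.2 and 65.7 CPM in wt and at 99.8, 112.3 and 113 in gld2, a rise of 0.65 on the log2 scale (SE 0.10, adjusted p = 1.32e-05, edgeR). In gld2-ccf1 it was at 58.4, 43.7 and 54.9 CPM, below every other library of the series. Against gld2 lys-8 fell by 1.05 (SE 0.10, adjusted p = 1.29e-07), and it was also lower than in wt (-0.40, SE 0.10, adjusted p = 0.00187). The gld2-ccr4 libraries had 101, 125 and 107 CPM and overlapped gld2, and the log2 fold change was 0.03 (SE 0.10, adjusted p = 0.844). It turned to -0.39 with a call (adjusted p = 0.0378) under scaling on somatic markers. The gld2-parn1 libraries, at 91.0, 97.3 and 92.0 CPM, were all below those of gld2, but the difference missed the threshold (-0.21, SE 0.10, adjusted p = 0.171). It passed in the fit of these 6 libraries alone (-0.22, adjusted p = 0.0427) and under somatic scaling (-0.61, adjusted p = 0.00262). In both lys-1 and lys-8 the rise in gld2 was of similar size, and in gld2-ccf1 they went opposite ways.

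The row of lys-4, lys-5 and lys-6 was low in gld2-ccf1. The most abundant of them, lys-4, was at 224, 167 and 138 CPM in wt. The gld2 libraries had 77.03, 81.8 and 92.2 CPM, and gld2-ccf1 had 10.97, 8.39 and 10.1. These 3 groups did not overlap. The gld2-parn1 libraries had 44.8, 90.3 and 69.7 CPM and overlapped gld2, and the gld2-ccr4 libraries had the 48.8, 3.13 and 3.18 given above. The fall from gld2 to gld2-ccf1 was 8.48-fold (log2 fold change -3.08, SE 0.89, adjusted p = 0.0208, edgeR), and that from wt 17.9-fold (-4.16, SE 0.93, adjusted p = 0.00334, and 3.82e-07 without gld2-ccr4 replicate 1). The large standard errors belong to a spread that gld2-ccr4 replicate 1 enters. The call of gld2-ccf1 against wt was lost without the 4 libraries richest in nuclear ribosomal RNA (-3.92, adjusted p = 0.0581, edgeR).

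The call of lys-4 in gld2-ccf1 against gld2 was lost without any 1 of the gld2-ccf1 libraries (adjusted p from 0.0599 to 0.0647). It was also lost when the 4 libraries richest in nuclear ribosomal RNA were left out (-2.92, adjusted p = 0.173), a fit that keeps gld2-ccr4 replicate 1. Without gld2-ccr4 replicate 1 alone, the log2 fold change of lys-4 from gld2 to gld2-ccf1 was -3.08 with an adjusted p of 9.64e-06 (edgeR). In gld2-ccr4 against gld2, lys-4 was at -2.19 on the log2 scale (SE 0.85, adjusted p = 0.1003, edgeR) with all libraries. DESeq2 called this fall with all libraries (-2.19, adjusted p = 0.0296). By edgeR it was -4.73 (adjusted p = 1.28e-05) without gld2-ccr4 replicate 1. Without that library lys-4 was also called lower in gld2 than in wt, at -1.08 (adjusted p = 0.00351), as it was in the fit of those 6 libraries alone (-1.10, adjusted p = 8.65e-04). With it, the change from wt to gld2 was the same -1.08 with an SE of 0.80 (adjusted p = 0.302). In gld2-parn1 against wt lys-4 was at -1.37 with an adjusted p of 0.188, and of 7.90e-04 without that library. In gld2-ccr4 against wt it was at -3.26 (adjusted p = 0.0101), and at -5.80 (adjusted p = 2.86e-07) without it. This call was lost when only these 6 libraries were fitted (-3.25, adjusted p = 0.107) and without the 4 libraries richest in nuclear ribosomal RNA (-3.12, adjusted p = 0.0634). Between gld2-ccf1 and gld2-ccr4 the sign turned, from -0.90 (adjusted p = 0.504) with that library to 1.65 (adjusted p = 0.00713) without it. In gld2-ccr4 against gld2-parn1 lys-4 went from -1.89 (adjusted p = 0.177) with that library to -4.43 (adjusted p = 2.59e-05, edgeR) without it. In gld2-ccf1 against gld2-parn1 lys-4 was called lower (-2.79, SE 0.89, adjusted p = 0.0307, edgeR). That call was lost without any 1 of the gld2-ccf1 libraries or gld2-parn1 replicate 2 or 3 (adjusted p from 0.0604 to 0.0884). It was also lost without a filter on low counts (adjusted p = 0.0565) and without the 4 libraries richest in nuclear ribosomal RNA (adjusted p = 0.196).

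Levels of lys-5 were low, with 498 counts in all. It was at 1.79, 1.22 and 1.05 CPM in wt, 1.32, 1.56 and 1.06 in gld2, 0.322, 0.587 and 0.294 in gld2-ccf1 and 0.866, 2.25 and 0.794 in gld2-parn1. Every gld2-ccf1 library was below every library of wt, gld2 and gld2-parn1, but the log2 fold change against gld2 missed the threshold (-1.74, SE 0.77, adjusted p = 0.0894). It passed without gld2-ccr4 replicate 1 (-1.74, adjusted p = 0.0175) and by DESeq2 (-1.78, adjusted p = 0.0437). DESeq2 also called lys-5 lower in gld2-ccf1 than in wt (-1.85, adjusted p = 0.0291). In gld2-ccr4 against gld2 the change was -2.11 (SE 0.77, adjusted p = 0.0648), and -4.55 (adjusted p = 8.08e-04) without replicate 1. With all libraries this fall was called by DESeq2 (adjusted p = 0.0225) and by edgeR without a filter (adjusted p = 9.39e-04). Without gld2-ccr4 replicate 1 edgeR also called lys-5 lower in gld2-ccr4 than in gld2-parn1 (-4.54, adjusted p = 0.00127). It called gld2-ccf1 above gld2-ccr4 (2.81, adjusted p = 0.0283) and below wt and gld2-parn1 (adjusted p = 0.0107 and 0.0178). With TMM scaling, the filter and all 15 libraries, edgeR called none of these. The fall of lys-5 from wt to gld2-ccr4 (-2.15, SE 0.78, adjusted p = 0.0295) was called with replicate 1 and without it (-4.59, adjusted p = 1.32e-04), and was lost without wt replicate 1 or 2 or gld2-ccr4 replicate 2 or 3 (adjusted p from 0.0527 to 0.103). It was also lost in the fit of those 6 libraries (adjusted p = 0.0873) and without the 4 libraries richest in nuclear ribosomal RNA (adjusted p = 0.116). In the library with 0 counts, gld2-ccr4 replicate 2, a limit of 3 counts corresponds to 0.0739 CPM, and such limits cover counting error only.

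Transcripts of lys-6 were at 4.25, 2.68 and 2.04 CPM in wt and at 2.61, 2.92 and 3.64 CPM in gld2. In gld2-ccf1 they were at 0.410, 0.629 and 0.736 CPM. The gld2-ccf1 libraries were the lowest of the series. The fall from gld2 was 5.12-fold (log2 fold change -2.36, SE 0.48, adjusted p = 8.17e-04, edgeR), with an adjusted p of 1.23e-04 without gld2-ccr4 replicate 1. In gld2-ccr4 they were at 4.18, 0.838 and 2.03 CPM, a spread that covers the range of gld2, and in gld2-parn1 at 2.62, 4.53 and 3.12. Neither of these genotypes was called against gld2 (adjusted p = 0.576 and 0.860), and without gld2-ccr4 replicate 1 the difference of gld2-ccr4 was -1.10 (adjusted p = 0.0766). By test gld2-ccf1 was lower than gld2-ccr4 (-1.98, SE 0.48, adjusted p = 0.00560), or -1.26 (adjusted p = 0.0489) without gld2-ccr4 replicate 1. In gld2-ccr4 against wt, lys-6 was at -0.34 on the log2 scale (SE 0.42, adjusted p = 0.521), and at -1.06 (adjusted p = 0.0409) without that library.

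The genes beside this row did not show the same levels. On the side of lys-4, 419 bases away, dsl-5 encodes a Delta-like ligand and was near silent, at 0.182 ± 0.130 CPM in wt and 0.702 ± 0.142 in gld2 (SD, n = 3). It was higher in gld2 than in wt (1.94, SE 0.65, adjusted p = 0.0181) and not called in any combined genotype against gld2. On the side of lys-6, 801 bases away, F58B3.4 averaged 71.5 to 81.1 CPM in the 5 genotypes and was called in none of the 4 main comparisons. In gld2-ccr4 replicate 1 neither differed from the other 2 libraries by 4-fold. This limit does not set them apart from lys-6, at 4.18 CPM there and 2.03 in replicate 3. Relative to the wt mean, log2 CPM of dsl-5 was 2.234 in replicate 1, above the 1.125 and 0.823 of replicates 2 and 3.

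**Figure D4:**
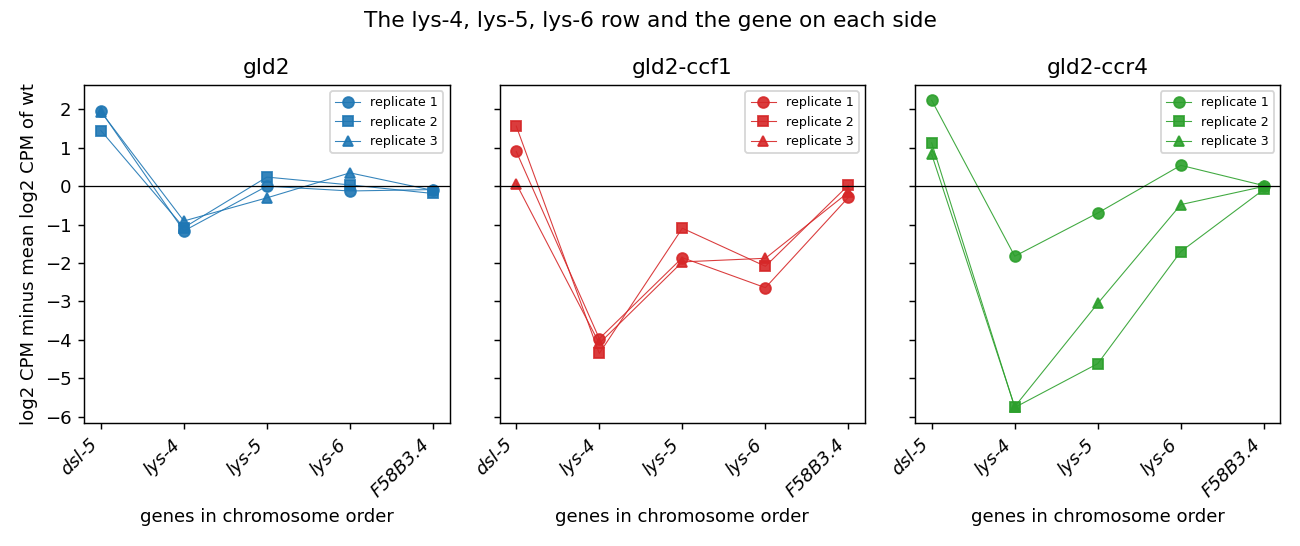
Log2 CPM minus the mean log2 CPM of wt (vertical axis, prior count 2) for lys-4, lys-5, lys-6 and the adjoining gene on each side, in chromosome order (horizontal axis), for gld2, gld2-ccf1 and gld2-ccr4. Lines join the genes of 1 library. In gld2-ccr4, replicates 2 and 3 reach -5.76 and -5.74 at lys-4 and replicate 1 only -1.83, while F58B3.4 stays near 0.

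The single-exon gene lys-10 had 394 counts in all. It was at 0.697, 0.835 and 0.413 CPM in wt and 1.44, 0.947 and 1.501 CPM in gld2. The gld2-ccf1 libraries had 0.527, 0.168 and 0.662 CPM, those of gld2-ccr4 had 0.331, 0.394 and 0.576, and gld2-parn1 had 0.971, 0.741 and 0.559. All gld2 libraries were above those of gld2-ccf1 and gld2-ccr4. The log2 fold changes were -1.47 (SE 0.48, adjusted p = 0.0217) and -1.57 (SE 0.48, adjusted p = 0.0252, edgeR). The first call was lost without gld2 replicate 1 or 3 or gld2-ccf1 replicate 2 (adjusted p from 0.0618 to 0.0983). The second was lost without gld2 replicate 1 or 3 or gld2-ccr4 replicate 1 or 2 (adjusted p from 0.0771 to 0.0912). Both were lost without the 4 libraries richest in nuclear ribosomal RNA (adjusted p = 0.223 and 0.0519).

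Of lys-9 only 22 counts were found, in 4 of 15 libraries. They were 8 in wt replicate 3, 7 in gld2 replicate 1, 5 in gld2-ccf1 replicate 1 and 2 in gld2-ccr4 replicate 2, with 0 in every gld2-parn1 library. No group had counts in more than 1 library, and a difference between genotypes was not detectable at this depth.

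**Figure D5:**
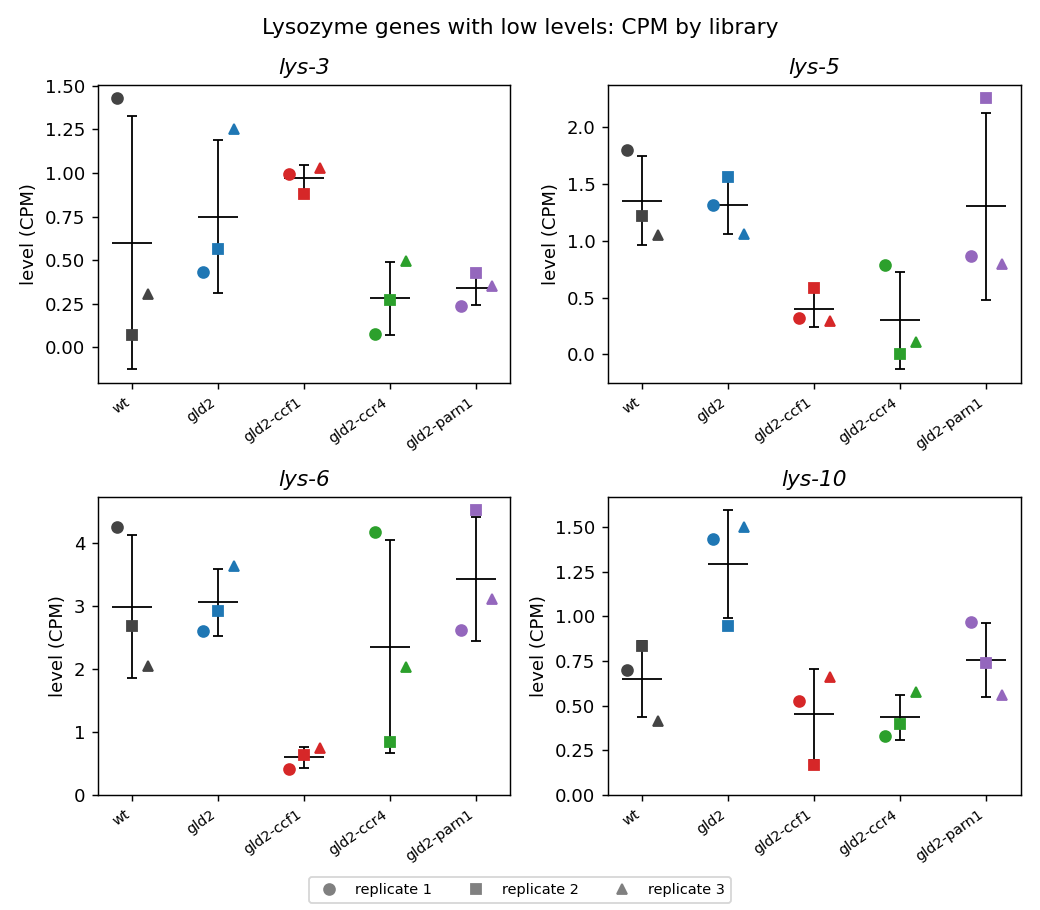
Level (CPM, vertical axis) of the 4 tested lysozyme genes with low counts in the 5 genotypes (horizontal axis). Symbols are the 3 libraries, the line is the mean and the bar the SD, which can reach below 0. The gld2-ccf1 libraries are the lowest for lys-6, and gld2 is the highest group for lys-10.

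Adjoining members varied together to different degrees. Over the 15 libraries, Pearson's correlation of log2 CPM was 0.946 between lys-1 and lys-2, 0.492 between lys-2 and lys-3, 0.899 between lys-4 and lys-5 and 0.650 between lys-5 and lys-6. Members far apart could run opposite ways, with -0.845 between lys-1 and lys-4 and -0.825 between lys-1 and lys-6. Others far apart ran the same way, with 0.635 between lys-1 and lys-7 and 0.568 between lys-6 and lys-8. Both positive values were above that of the adjoining lys-2 and lys-3. The correlation of lys-4 and lys-6, which do not adjoin, was 0.736. These values describe libraries that share 5 genotype means and 1 scaling. The gene with the pattern most like lys-7 was F47B3.7, tied with dlhd-1 and C17H12.12 at 0.989. For lys-1 it was C34F6.5 (0.984), for lys-2 lgmn-1 (0.964), which encodes a legumain-type protease, and for lys-8 cyp-35D1 (0.956), a cytochrome P450 gene. For lys-4 these were msra-1 (0.959), a methionine sulfoxide reductase gene, and clec-47 (0.957), and for lys-5 F18E3.12 (0.927) and clec-47 (0.920). For lys-6 they were T05E12.6 (0.925) and acdh-1 (0.920), an acyl-CoA dehydrogenase gene. Of these, clec-47, F18E3.12 and acdh-1 are among the 12 genes that stood above in gld2-ccr4 replicate 1. The low-count members had weaker matches, nspc-4 for lys-3 (0.892) and strd-1 for lys-10 (0.857).

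The invertebrate-type lysozymes were compared as background. Of the 6 ilys genes 4 were tested, and the summed level was 290.3 to 344 CPM in wt and 276 to 296 CPM in gld2. It was 157 to 170.5 CPM in gld2-ccf1, while gld2-ccr4 had 341 to 356 and gld2-parn1 264 to 266.5. Nearly all of it was ilys-5, at 319 ± 27.6 CPM in wt, 285 ± 9.70 in gld2, 161 ± 7.81 in gld2-ccf1 and 343 ± 7.80 in gld2-ccr4 (SD, n = 3). It fell from gld2 to gld2-ccf1 by 0.82 (SE 0.06, adjusted p = 1.29e-08) and rose to gld2-ccr4 by 0.27 (SE 0.06, adjusted p = 0.00534, edgeR). In the libraries labelled gld2-ccf1, the sum of the lys genes was thus above and the sum of the ilys genes below every other library. The less abundant ilys-4 rose in gld2-ccf1 (0.92, SE 0.25) and gld2-ccr4 (0.77, SE 0.25).

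Among other antimicrobial genes, 17 of 23 saposin-like spp genes, whose products permeabilise membranes in the known cases, were tested. Their counts, and those of the pathway and tissue lists, stand against shares of all tested genes of 28.8% higher and 20.2% lower in gld2 against wt. Against gld2, the gld2-ccf1 worms had 19.8% of all genes higher and 16.7% lower, those of gld2-ccr4 had 11.1% and 9.23%, and gld2-parn1 had 4.90% each way. Against wt, gld2 had 4 higher and 4 lower spp genes. Against gld2, 5 rose and 5 fell in gld2-ccf1, 8 rose and 0 fell in gld2-ccr4, and 2 rose and 1 fell in gld2-parn1. The gene spp-8 averaged 54.3 ± 8.96 CPM in gld2-ccr4 and 21.5 ± 3.49 in gld2, both SD with n = 3, and spp-1 rose between the same groups with a log2 fold change of 1.25 (SE 0.10). The antibacterial factor genes abf had 4 of 6 tested, with abf-2 at 0.439 CPM in wt and 1.59 in gld2, and 1 rose in gld2 against wt. In the 3 combined genotypes 2, 1 and 1 rose against gld2, and 0 fell in any of these 4 comparisons. Of the thaumatin-like thn genes 2 were tested and both rose in gld2 against wt. Against gld2, 1 rose in gld2-ccf1, 1 rose in gld2-ccr4 and 1 fell in gld2-parn1. The more abundant, thn-2, went from 19.1 to 51.6 CPM, and against gld2 it fell by 1.03 (SE 0.10, adjusted p = 2.69e-06) in gld2-parn1, the comparison in which 0 lysozyme genes were called.

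Genes of the pathways that act on these effectors were tested too. Of 7 genes of the p38 MAPK immune pathway 2 rose and 2 fell in gld2 against wt, and against gld2 5 rose in gld2-ccf1 (median log2 fold change 0.43), while 1 fell in gld2-ccr4 and 1 in gld2-parn1. The MAP kinase gene pmk-1 averaged 16.3 CPM in wt, 33.1 in gld2, 44.7 in gld2-ccf1, 22.3 in gld2-ccr4 and 13.9 in gld2-parn1. In the same list, atf-7 averaged 139 CPM in wt and 90.3 in gld2, and skn-1 113 in wt and 55.6 in gld2. Of 11 genes of the insulin and DAF-16 pathway 2 rose and 4 fell in gld2 against wt. The kinase gene akt-2 was at 6.39 ± 1.09 CPM in wt and 22.5 ± 2.25 in gld2 (SD, n = 3). The more abundant daf-18 was lower in gld2, at 702 ± 2.95 CPM against 1100 ± 41.7 in wt (SD, n = 3). Against gld2, 3 rose and 2 fell in gld2-ccf1, 0 rose and 2 fell in gld2-ccr4 and 0 were called in gld2-parn1. Of 12 genes of the DBL-1 pathway 5 rose in gld2 against wt and, against gld2, 6 rose and 3 fell in gld2-ccf1, 2 rose and 1 fell in gld2-ccr4 and 0 were called in gld2-parn1. Its extracellular modulator gene crm-1 went from 13.4 CPM in wt to 31.8 in gld2 and 97.4 in gld2-ccf1. Of 19 other immune regulators 3 rose and 6 fell in gld2 against wt. Against gld2, 14 rose and 1 fell in gld2-ccf1, among them the Toll receptor gene tol-1 (adjusted p = 2.00e-07, edgeR), 4 rose and 1 fell in gld2-ccr4 and 1 rose in gld2-parn1.

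Markers of tissues moved between the same groups. Of 23 tested intestine markers 3 rose and 12 fell in gld2 against wt (median log2 fold change -0.57), while lys-1, lys-7 and lys-8 rose there. Against gld2, 13 rose and 4 fell in gld2-ccf1 (0.58), 12 rose and 1 fell in gld2-ccr4 (0.58) and 9 rose and 0 fell in gld2-parn1 (0.23). Their summed level was 15910 to 28260 CPM in wt and 13470 to 14480 CPM in gld2. It ran from 11390 to 22920 CPM in gld2-ccf1, while gld2-ccr4 had 14040 to 15100 and gld2-parn1 13420 to 20170, ranges that each overlap that of gld2. Most of this sum came from the yolk protein genes vit-6 and vit-2, so it says little of the other markers. They averaged 11100 and 6500 CPM in wt and 7480 and 3900 in gld2, and neither was called between any genotypes. The peptide transporter gene pept-1 averaged 80.4 CPM in wt, 21.2 in gld2, 35.3 in gld2-ccf1, 70.7 in gld2-ccr4 and 43.4 in gld2-parn1. The intestinal filament gene ifc-2 averaged 60.6 CPM in wt, 40.7 in gld2, 57.9 in gld2-parn1 and 79.7 in gld2-ccr4, and in gld2-ccf1 it was above gld2-ccr4 (log2 fold change 0.50, SE 0.09, adjusted p = 5.06e-04, edgeR). Leaving wt aside, the group means of ifc-2 stood in the same order as those of lys-1, and those of pept-1 did not. Muscle markers (17 tested) had 0 higher and 5 lower in gld2 against wt and 13, 13 and 8 higher and 0, 1 and 0 lower in the combined genotypes (in the order ccf1, ccr4, parn1) against gld2. Of 15 epidermis markers 0 rose and 6 fell in gld2 against wt, and 5, 4 and 4 rose and 1, 1 and 0 fell in the combined genotypes. Of 18 neuron markers 8 rose and 1 fell in gld2, and 4, 3 and 2 rose and 0, 1 and 0 fell in the combined genotypes. Of 9 pharynx markers 1 rose and 1 fell in gld2, and 1, 4 and 0 rose and 1, 0 and 0 fell in the combined genotypes. Of 5 coelomocyte markers 0 rose in any of these comparisons, and 1 fell in gld2, 1 in gld2-ccf1, 0 in gld2-ccr4 and 1 in gld2-parn1. Of 20 germline markers 0 rose and 16 fell in gld2, and 9, 2 and 1 rose and 2, 1 and 1 fell in the combined genotypes. All 19 tested sperm markers rose in gld2 (median 6.99), and 0, 0 and 3 rose and 10, 3 and 0 fell in the combined genotypes. The part of these shifts in the lysozyme levels was not tested.

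The scaling of the libraries bears on all directions. Scaling on the intestine, muscle, neuron and epidermis markers shifted the median log2 fold change over all genes in gld2 against wt from 0.14 to 0.40. Against gld2 it went from between 0.00 and 0.02 to -0.44 in gld2-ccf1, to -0.43 in gld2-ccr4 and to -0.37 in gld2-parn1. The share of higher genes among those called went from 58.9% to 81.6%, from 54.3% to 15.1%, from 54.6% to 9.48% and from 50% to 4.83%. Under it every call of lys-1 and the calls of lys-7 and lys-8 in gld2 against wt, of lys-2, lys-4, lys-6 and lys-8 in gld2-ccf1 against gld2 and of lys-10 in gld2-ccf1 and gld2-ccr4 against gld2 were kept. Lost were the calls of lys-7 in gld2-ccr4 against gld2, of lys-8 in gld2-parn1 against wt (0.31, adjusted p = 0.0955) and those of lys-2 and lys-7 named above. Gained were lower calls of lys-3, lys-4 (-2.62, adjusted p = 0.0422), lys-5 (-2.55, adjusted p = 0.0179) and lys-8 in gld2-ccr4 against gld2, where 35.1% of all genes were then lower and 3.68% higher. In gld2-parn1 against gld2, lys-8 was gained where 32.1% of all genes were lower. Further gains were lys-10 higher in gld2 than in wt (1.26, adjusted p = 0.0441) and lys-5 lower in gld2-ccf1 than in gld2 and wt (adjusted p = 0.0331 and 0.0480). No difference called with TMM scaling turned sign.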

How the data were processed

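RNA of whole worms was sequenced in 15 strand-specific libraries, 3 for each of 5 genotypes. The authors deposited whole read counts per gene, per the file headers. The submitters' processing notes name WBcel235, DESeq2 1.18.1, Subread 1.4.6-p4, featureCounts, STAR 2.5.2b and FastQC without their roles. The second deposited table, a signal of counts scaled by the authors, was not used. Symbols, positions and exon lengths came from the WBcel235 annotation. The lysozyme genes, the 16 gene lists and the tests were chosen with earlier results of these data known.

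Counts were tested in edgeR 4.0.16 (R 4.3.3): filterByExpr, TMM scaling, a robust glmQLFit on 5 genotype means, which leaves 10 residual degrees of freedom, glmQLFTest and Benjamini-Hochberg adjustment over 16888 genes, with a common biological coefficient of variation of 0.178. CPM use TMM library sizes, and RPKM are CPM per kilobase of summed exons. The SE is the log2 fold change over the square root of F. Scripts were tested on simulated data. Libraries of a genotype differed beyond sampling noise (chi-square per degree of freedom of at least 12.3). The labels do not say whether they came from separate cultures, so p-values measure the spread between these libraries, which may be technical.

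Besides all 10 lysozyme genes, the text takes the 4 targeted genes, for each list from the 2 members with the smallest p over the genotypes and the 2 most abundant, neighbouring genes, and from the 3 genes most correlated with each member. The libraries' totals limit the precision of the low-count genes. Alternatives were RLE or somatic scaling, no or a stricter filter, a replicate block, DESeq2 1.42.0, fits of 6 libraries, and fits without single libraries, libraries above 4% nuclear ribosomal RNA or the 10 most abundant genes. The fit without gld2-ccr4 replicate 1 for comparisons it does not enter was added after seeing the data.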

Additional observations from a re-analysis of the deposited data

How the results depend on the processing

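Over 90 pairs of a lysozyme gene and a comparison, 1404 alternative values were computed, of which 1260 kept their direction and their side of the threshold, 49 lost a call, 46 gained one and 49 turned sign. RLE scaling, the stricter filter and leaving out the 10 most abundant genes changed no call. None of the sign changes was of a difference called as reported, and their causes were not tested except where stated. Those of lys-8 in gld2-ccr4 against gld2 under somatic scaling (-0.39 in place of 0.03) and of lys-4 in gld2-ccf1 against gld2-ccr4 without gld2-ccr4 replicate 1 (1.65 in place of -0.90) ended with a call, and in the second the left-out library held the highest lys-4 level of its group.

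The other sign changes were of log2 fold changes without a call on either side. Under somatic scaling they were lys-5 in gld2 against wt (0.22), lys-7 and lys-3 in gld2-ccf1 against gld2 (-0.33 and -0.069) and lys-7, lys-1 and lys-6 in gld2-parn1 against gld2 (-0.20, -0.21 and -0.20). In the fit that leaves out the libraries with over 4% nuclear ribosomal RNA they were lys-5 in gld2 against wt (0.29), in gld2-parn1 against gld2 (0.12) and in gld2-parn1 against wt (0.41), lys-3 in gld2-ccr4 and gld2-parn1 against wt (0.47 and 0.72) and lys-7 in gld2-ccf1 against gld2-parn1 (0.024). The value of lys-5 in gld2-parn1 against gld2 was 0.017 with RLE scaling and 0.016 with DESeq2 in place of -0.0078, and that of lys-6 in gld2 against wt was -0.012 without the 10 most abundant genes.

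With 1 library left out, values that crossed 0 in gld2 against wt ran from -0.27 to 1.94 for lys-3, from -0.20 to 0.23 for lys-5 and from -0.19 to 0.39 for lys-6. In gld2-ccf1 against gld2 they ran from -0.022 to 0.20 for lys-7, and in gld2-ccr4 against gld2 from -1.10 to 0.027 for lys-6 and from -0.056 to 0.098 for lys-8. In gld2-parn1 against gld2 they ran from -0.66 to 0.24 for lys-5 and from -0.090 to 0.32 for lys-6. In gld2-ccr4 against wt they ran from -1.76 to 0.54 for lys-3 and from -1.06 to 0.061 for lys-6. In gld2-parn1 against wt they ran from -1.34 to 0.80 for lys-3, from -0.70 to 0.21 for lys-5, from -0.056 to 0.54 for lys-6 and from -0.016 to 0.45 for lys-10. In gld2-ccf1 against gld2-ccr4 they ran from -1.40 to 1.65 for lys-4, from -0.22 to 2.81 for lys-5 and from -0.26 to 0.45 for lys-10. They ran from -0.21 to 0.022 for lys-7 in gld2-ccf1 against gld2-parn1 and from -0.94 to 0.17 for lys-3 in gld2-ccr4 against gld2-parn1.

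Under somatic scaling gld2-ccr4 against gld2 had 1 member higher and 5 lower, where 3.68% and 35.1% of all genes were called. In gld2-parn1 against gld2 1 was lower, where 32.1% of all genes were. In gld2-ccf1 against gld2-ccr4 and gld2-ccr4 against gld2-parn1 1 was higher each, where 9.3% and 3.67% of all genes were. Without a filter gld2-ccr4 against gld2 had 2 lower (5.21% of all genes) and gld2-ccr4 against gld2-parn1 had 1 lower (3.59%). DESeq2 gave 3 lower in gld2-ccr4 against gld2 (10.2% of all genes) and 1 lower in gld2-ccr4 against gld2-parn1 (8.46%). Without the libraries above 4% nuclear ribosomal RNA, 2 were lower in gld2-ccf1 against gld2 (12.9% of all genes). In that fit 0 were lower in gld2-ccr4 against gld2 (10.2%) and 0 in gld2-ccr4 against wt (23.2%), and 5 members differed over the genotypes (63.2%). In the fits of the 6 libraries compared, 1 was lower in gld2 against wt (23.9% of all genes) and 1 in gld2-parn1 against gld2 (7.46%). Such fits gave 0 lower in gld2-ccr4 against wt (22.9%) and 1 in gld2-parn1 against wt (23.6%).

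With 1 library left out at a time, the count of higher members ran from 3 to 5 in gld2 against wt (5 without wt replicate 1), from 1 to 3 in gld2-ccf1 against gld2-ccr4 and from 1 to 3 in gld2-ccr4 against gld2-parn1. The count of lower members ran from 2 to 5 in gld2-ccf1 against gld2, from 0 to 2 in gld2-ccr4 against gld2, from 1 to 3 in gld2-ccr4 against wt and from 0 to 2 in gld2-ccr4 against gld2-parn1. It ran from 0 to 1 in gld2 against wt and in gld2-parn1 against wt, in both cases 1 without gld2-ccr4 replicate 1. The shares of all genes called in these comparisons with all 15 libraries are given with the counts above.

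The replicate numbers did not pair the libraries: the correlation of same-numbered deviations ran from -0.0967 to 0.0922 over 30 pairs. With the replicate block the call of lys-2 in gld2-ccr4 against gld2-parn1 was lost (1.35, adjusted p = 0.0748) and no other call changed.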
